A study of Mus musculus with 18 samples.

Results

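Resting Bat3 knockout dendritic cells were compared with wild-type dendritic cells given IL10 and TGF-β, a pair of cytokines used to make dendritic cells tolerogenic. Neither group received lipopolysaccharide (LPS), the bacterial product that activates these cells. The comparison takes 6 of the 18 libraries of the series, 3 in each group, chosen by their genotype and treatment labels alone, and covers all 23420 genes listed. Every library came from bone-marrow-derived dendritic cells (BMDC) of C57BL/6 mice, grown with GM-CSF at 20 ng/ml, replated on day 9, treated for 8 h and sorted as live CD11c-high cells. The knockout cells have the genotype Bat3 fl/fl CD11c Cre, so deletion depends on the CD11c promoter, which also drives the surface marker used for the sort. The knockout cells stayed in medium. The other group is wild type with IL10 + TGF-β. The labels do not say whether wild-type cells carried Cre or floxed alleles, and the cytokine doses are not given in the sources used here. Genotype and treatment both differ between the groups, so their effects cannot be told apart in this contrast. The 3 libraries of wild-type cells in medium are therefore given beside it as a level for both groups. The labels do not say whether replicates were separate mice or cultures, and the p-values measure only the spread between these libraries.

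IL-10 binds a receptor pair that activates the transcription factor STAT3, which in myeloid cells restrains cytokine production and antigen presentation. TGF-beta binds receptor kinases that activate SMAD proteins, with targets that include the inhibitor Smad7 and the adaptor gene Pmepa1. BAT3, encoded by Bag6, is a chaperone that holds hydrophobic protein segments before membrane insertion or degradation. Interferon-stimulated genes are another group met below. They are switched on by factors downstream of the interferon receptors, which bind an element built from repeated GAAA in their promoters.

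The 6 libraries held 9155542 to 11625458 expected counts each. Bag6 (chromosome 17, 35135156 to 35147321 on GRCm38) was measured first, since it is the gene deleted. Its level was 4.81, 7.31 and 4.56 CPM, the read count scaled to a common library size, in the knockout libraries and 26.0, 26.4 and 25.9 CPM in the cytokine-treated libraries. The groups did not overlap, and Bag6 was lower in the knockout by 2.23 on the log2 scale (log2 fold change -2.23, SE 0.17, adjusted p = 2.1e-09). Wild-type cells in medium had 22.8, 24.6 and 23.1 CPM. The deposited values count reads over the whole gene, so the deleted exons were not measured apart.

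Several libraries stood apart. The first knockout library carried 526 CPM of Xist, against 0 to 1.12 CPM in the other 5, and had the Y-linked Ddx3y at 0.181 CPM against at least 35.1 CPM. It therefore has the female pattern and the other 5 the male one. The first cytokine-treated library was high in a set of maturation genes, and the third wild-type medium library was low in some of them. Markers of granulocytes summed to 9450 to 12100 CPM in the knockout libraries, 16400 to 19200 CPM with cytokines and 5430 to 5840 CPM in wild-type medium. The marker Chi3l3 alone held 5300 to 6100, 8280 to 9920 and 1780 to 2480 CPM in the same order, so the sums lean on that gene. The ribosomal RNA precursor Rn45s took 1.28% to 4.01% of the counts in the knockout, 6.78% to 8.88% with cytokines and 6.38% to 8.02% in wild-type medium. The granulocyte sum was thus highest with cytokines, while Rn45s was low in the knockout only. With Rn45s left out of the counts, 5447 genes were called in the main comparison below in place of 5452, and the interferon-stimulated list described below still had all 38 members lower (median -2.76). Leaving out that gene removes its own counts only. It cannot show whether RNA quality or library preparation differed between the groups, which was not tested. The part of granulocytes in the results below was not tested either. The identity of the cells was checked against 8 markers of CD11c-sorted GM-CSF cultures, which summed to 8230 to 10100 CPM in the knockout, 5700 to 6190 CPM with cytokines and 7290 to 11300 CPM in wild-type medium. Of these, Itgax (which encodes CD11c), H2-Ab1, Cd74 and Cd52 were called higher in the knockout than with cytokines and Csf2rb lower, while Csf2ra, Ptprc and Itgam were not called. Itgax was at 701 to 912 CPM in the knockout, 336 to 415 CPM with cytokines and 680 to 1010 CPM in wild-type medium. In bulk RNA, fewer cells of a type and less RNA per cell cannot be told apart.

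After low counts were filtered, 11876 genes were tested. With an adjusted p under 0.05, 5452 genes were called (45.9%), 2734 higher in the knockout (23.0%) and 2718 lower (22.9%). Of these, 961 were more than 2-fold higher and 940 more than 2-fold lower. In 6343 genes (53.4%) the 3 knockout values did not overlap the 3 cytokine values. These shares are the background against which each gene list below is read. Against the wild-type medium libraries, 3583 genes (30.2%) were called in the knockout and 4175 (35.2%) with cytokines. These side comparisons share the wild-type medium libraries, and each also shares libraries with the main contrast, so their values are set side by side only. Of the calls against wild-type medium, 52.4% were higher in the knockout and 52.0% with cytokines. On log2(TPM + 1) these shares were 39.4% and 34.1%, and the median of all genes was at -0.117 for the cytokine comparison.

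**Figure D1:**
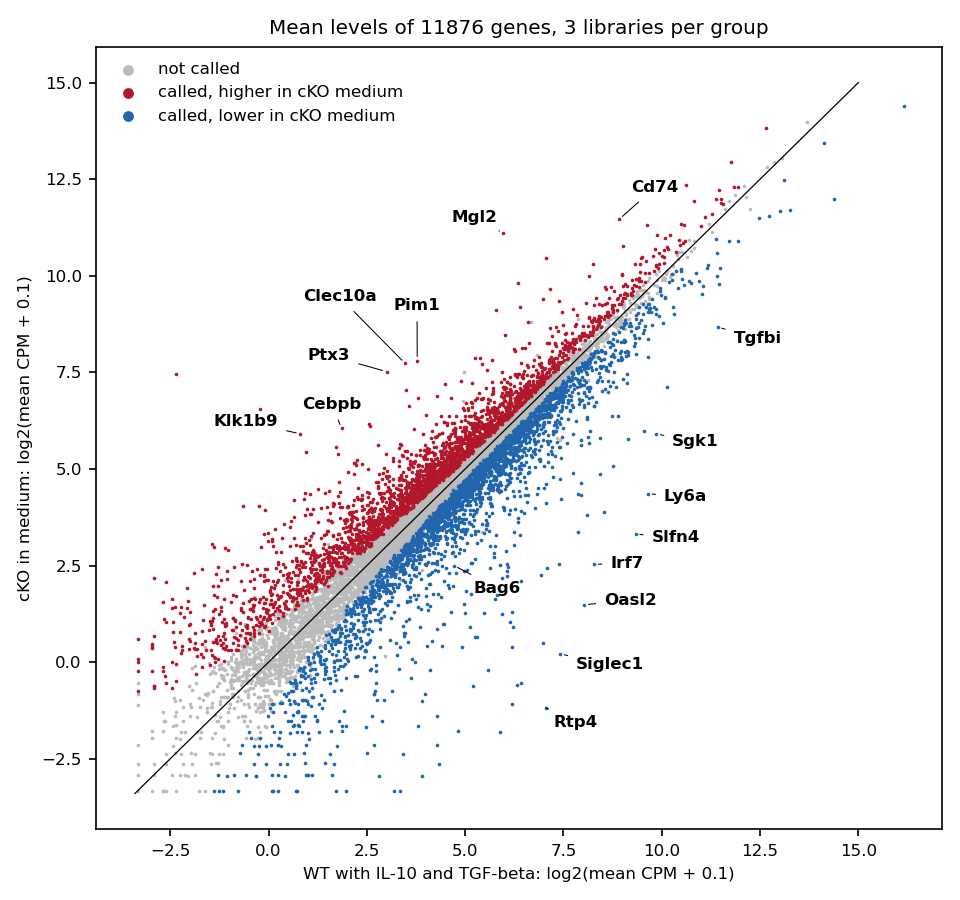
Mean level of each tested gene in wild-type cells with IL10 + TGF-β (x axis) and in resting knockout cells (y axis), as log2(mean CPM + 0.1), with 1 point per gene, genes called at an adjusted p under 0.05 coloured and the diagonal marking equal levels. Mgl2, Clec10a and Pim1 lie far above the diagonal, Rtp4, Siglec1 and Oasl2 far below it, and calls fall on both sides in like numbers (2734 and 2718).

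The interferon-stimulated genes were lower in the knockout as a whole list. All 38 tested members were called lower, against 22.9% of all genes, with a median log2 fold change of -2.74 and a range of -8.55 to -1.10. The median over all genes was 0.000745. Every member was lower by more than 2-fold, and in none did the 2 groups overlap. Against wild-type medium, 37 of the 38 were called higher with cytokines (18.3% of all genes were) and none lower, and the exception, Gbp2, was not called. In the knockout against the same libraries, 1 member was called higher (15.8% of all genes were) and 6 lower (14.4% were). The 6 lower were Oas1a, Rtp4, Zbp1, Trim30a, Irgm1 and Gbp3 and the higher one Isg20, an RNA-degrading enzyme.

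Rtp4, a receptor-transporting protein induced by interferon, showed the lowest ratio. Its 3 knockout values were 0.181, 0.0962 and 0.745 CPM, and its 3 cytokine values 133, 136 and 129 CPM (log2 fold change -8.55 ± 0.23 SE). Oasl2 (chromosome 5, 114896926 to 114912245), an antiviral member of the oligoadenylate synthetase family, had 3.27, 2.6 and 2.24 CPM in the knockout and 264, 283 and 237 CPM with cytokines. That is a 96.3-fold difference (log2 fold change -6.59 ± 0.18 SE, adjusted p = 1.2e-16), and wild-type medium cells had 3.99, 3.0 and 4.63 CPM. Irf7, the transcription factor that amplifies type I interferon production, had 6.17, 5.97 and 4.94 CPM in the knockout. With cytokines it had 367, 340 and 227 CPM, 54.6-fold more (log2 fold change -5.77 ± 0.21 SE, adjusted p = 6.2e-14). Siglec1, a sialic acid-binding receptor of macrophages, had 0.454, 0.77 and 1.96 CPM in the knockout against 172, 203 and 137 CPM. In each of these genes the lowest cytokine value lay far above the highest knockout value.

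In further members the cytokine-treated cells were also the higher group. Isg15, a ubiquitin-like protein, had 3.18, 1.54 and 2.05 CPM in the knockout against 75.0, 54.2 and 54.9 CPM. Trim30a had 26.5, 32.0 and 30.0 CPM against 217, 222 and 202 CPM, and in the knockout it was also called lower than in wild-type medium. Rsad2, which encodes the antiviral protein viperin, was uneven among the cytokine-treated libraries, at 225, 86.2 and 66.0 CPM, yet all were far above its knockout values of 1.36, 0.577 and 1.96 CPM. Cxcl10, a chemokine of T cells that interferon induces, had 0.907, 2.6 and 0.931 CPM in the knockout and 44.2, 34.4 and 36.1 CPM with cytokines. Genes of the Oas1, Ifit, Slfn and Ly6 families have near-identical copies that may share reads, so the split among copies is uncertain.

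Genes outside the list with the largest falls had a like pattern. Slfn4, a Schlafen family gene of myeloid cells, had 10.2, 13.8 and 5.59 CPM in the knockout and 684, 847 and 407 CPM with cytokines. Ly6a, which encodes the surface protein Sca-1, had 19.3, 21.8 and 20.1 CPM against 762, 980 and 674 CPM. Fcgr4, an activating Fc receptor, had 1.36, 3.94 and 1.77 CPM against 67.3, 87.3 and 62.3 CPM. In all of these the 2 groups lay more than 10-fold apart.

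Promoters of the list were read from RefSeq (GRCm38.p6), as the 250 bases before the gene's start. An element of the form GAAA, any 2 bases, GAAA, the core of the binding site for the interferon-activated factors, was searched on both strands (on the other strand it reads TTTC, any 2 bases, TTTC). The elements were chosen after the values were seen. Of the 38 genes, 28 had a promoter entry, and 14 of them (50%) held the element. Among all tested genes with an entry it was in 245 of 8871 (2.76%), and among all promoters of that length in 823 of 27025 (3.05%). A pair of STAT-type elements was also searched. TTCNNNGAA was in 6 of the 28 (21.4%) and in 6.1% of the tested genes, and TTC, any 4 bases, GAA in 3 of the 28 (10.7%) and in 4.51% of the tested genes. None of the 10 matched genes among the 12 with the largest rises held the GAAA element. A match is a description of these letters only. Of the members that hold the element, 4 are printed as examples of where it lies, not as a strict ranking by p-value. Each runs 5′ to 3′ in the direction of the gene, with the element in capitals. They are all on the minus strand: Oas3 at chr5:120777660-120777909, Trim30a at chr7:104465194-104465443, Oas1a at chr5:120907526-120907775 and Bst2 at chr8:71537473-71537722.
Oas3: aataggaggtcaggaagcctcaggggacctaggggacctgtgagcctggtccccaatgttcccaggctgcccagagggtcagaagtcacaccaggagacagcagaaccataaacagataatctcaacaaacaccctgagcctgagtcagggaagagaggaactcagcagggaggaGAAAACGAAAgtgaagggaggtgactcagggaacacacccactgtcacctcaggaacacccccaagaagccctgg
Trim30a: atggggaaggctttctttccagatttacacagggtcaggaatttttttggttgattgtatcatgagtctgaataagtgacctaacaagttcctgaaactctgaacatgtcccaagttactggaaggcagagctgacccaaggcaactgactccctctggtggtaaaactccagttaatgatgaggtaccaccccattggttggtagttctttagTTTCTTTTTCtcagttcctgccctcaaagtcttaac
Oas1a: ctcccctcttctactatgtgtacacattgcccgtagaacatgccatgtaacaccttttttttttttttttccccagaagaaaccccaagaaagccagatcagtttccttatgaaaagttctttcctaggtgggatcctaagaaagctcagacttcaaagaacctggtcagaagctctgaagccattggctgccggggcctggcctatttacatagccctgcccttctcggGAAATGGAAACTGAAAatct
Bst2: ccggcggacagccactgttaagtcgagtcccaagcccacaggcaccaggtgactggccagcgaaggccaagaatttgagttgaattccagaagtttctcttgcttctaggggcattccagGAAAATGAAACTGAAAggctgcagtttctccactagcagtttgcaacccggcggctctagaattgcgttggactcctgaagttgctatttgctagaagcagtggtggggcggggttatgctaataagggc

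In Oas3 the element lies 75 to 66 bases before the start. In Trim30a it is on the opposite strand, 36 to 27 bases before the start. Oas1a holds a pair of overlapping matches at 20 to 11 and 14 to 5 bases, and Bst2 another pair at 130 to 121 and 124 to 115 bases. All of these genes were lower in the knockout: Oas3, a synthetase that senses double-stranded RNA, had 11.5, 9.43 and 9.96 CPM against 257, 232 and 208 CPM (log2 fold change -4.49 ± 0.15 SE).

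**Figure D2:**
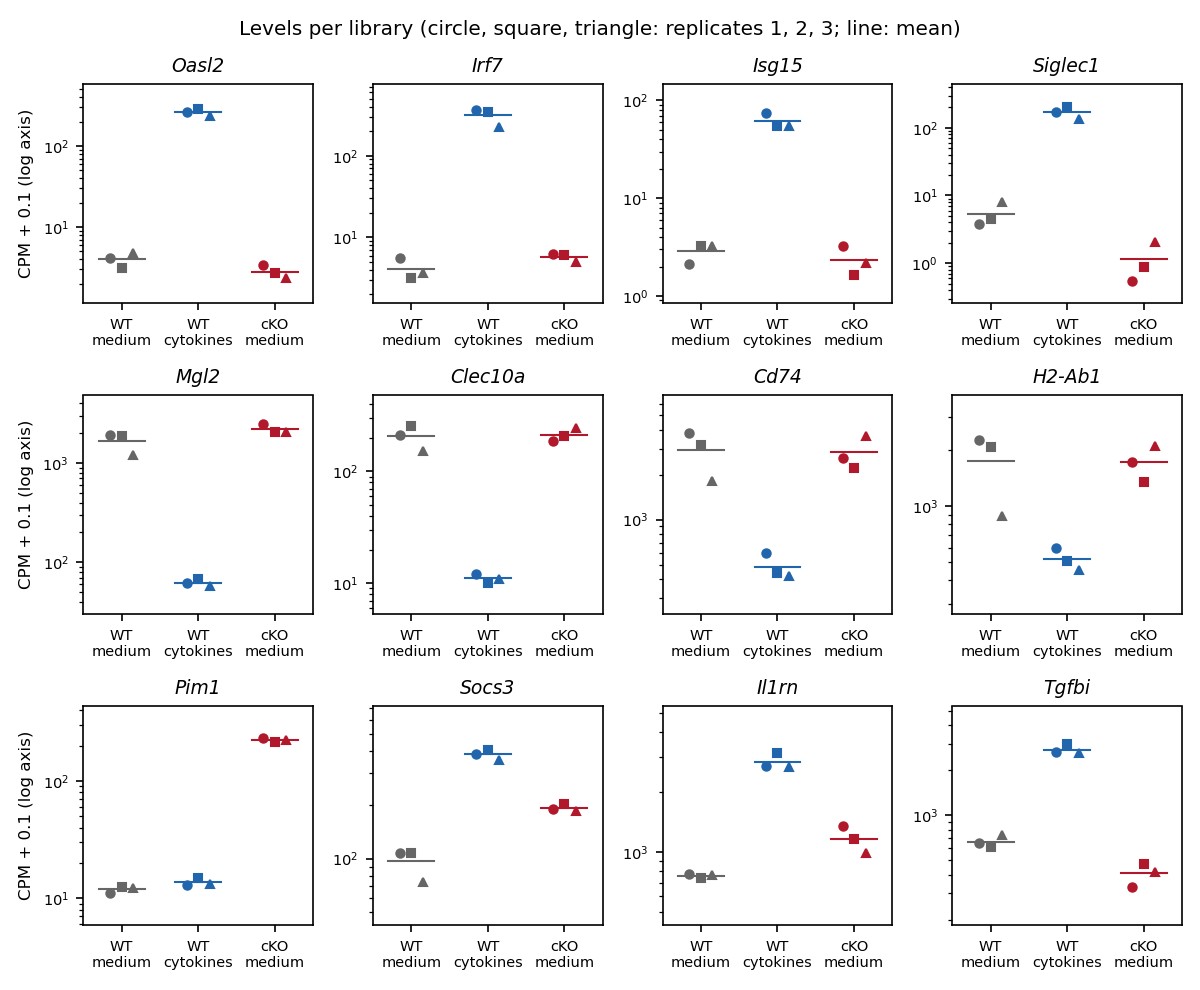
Level of 12 genes in each library, as CPM + 0.1 on a log axis, for wild-type medium, wild-type with IL10 + TGF-β and knockout in medium; circles, squares and triangles are replicates 1, 2 and 3 and the line is the group mean. Oasl2, Irf7, Isg15 and Siglec1 are high only in the cytokine column of the 3 shown, Mgl2, Clec10a, Cd74 and H2-Ab1 are low in it, and Pim1 is high in the knockout column.

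Antigen presentation genes were mostly higher in the knockout. Of 18 tested genes of the MHC class II pathway, 13 were called higher and 4 lower, against 23.0% and 22.9% of all genes, with a median log2 fold change of 0.99. Cd74, the invariant chain that guides class II molecules to the endosome, had 2590, 2230 and 3670 CPM in the knockout and 597, 440 and 416 CPM with cytokines. That is 5.86-fold more (log2 fold change 2.55 ± 0.25 SE, adjusted p = 6.5e-07). Wild-type medium cells had 3810, 3180 and 1820 CPM, a range that takes in all 3 knockout values. Its low end rests on the third library alone. H2-Ab1, a class II beta chain, had 1720, 1350 and 2120 CPM against 594, 507 and 458 CPM (log2 fold change 1.74 ± 0.26 SE, adjusted p = 8.3e-05). The groups did not overlap in either gene.

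H2-Ob, a subunit of the class II peptide-exchange regulator H2-O, had 36.4, 42.2 and 46.3 CPM in the knockout and 3.98, 3.89 and 2.06 CPM with cytokines. Rfx5, a DNA-binding subunit of the complex that switches on class II promoters, had 17.0, 18.1 and 16.6 CPM against 6.69, 7.44 and 5.92 CPM. The members called lower were Lgmn, Ctss, March1 and Ifi30, of which Lgmn, Ctss and Ifi30 encode endosomal enzymes that process antigen or the invariant chain. Lgmn had 86.0, 65.6 and 88.7 CPM in the knockout and 182, 191 and 143 CPM with cytokines. Against wild-type medium, 11 of the 18 were called lower with cytokines (16.9% of all genes were) and 3 higher. In the knockout against wild-type medium 3 were called higher and 4 lower. H2 genes have close copies, so their values are uncertain.

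The largest rises included a pair of C-type lectins and a group of kallikreins. Mgl2 (chromosome 11, 70130125 to 70137542), a galactose-type lectin that takes up glycosylated antigen, had 2480, 2050 and 2070 CPM in the knockout and 61.1, 67.7 and 58.1 CPM with cytokines, a 35.3-fold difference (log2 fold change 5.14 ± 0.27 SE, adjusted p = 6.4e-10). Its wild-type medium values were 1930, 1890 and 1210 CPM. Clec10a, its close relative, had 188, 207 and 244 CPM against 12.1, 9.9 and 10.9 CPM, with 213, 254 and 152 CPM in wild-type medium. Both lectins were low in the cytokine-treated cells. For Clec10a the knockout values lay inside the wild-type medium range, whose low end rests on the third library alone. For Mgl2 the knockout values lay above the wild-type medium range (log2 fold change 0.39, adjusted p = 0.21). As these are close relatives, shared reads are possible. Klk1b9 and Klk1b11, glandular kallikreins with near-identical copies, had 46.0 to 80.5 and 116 to 140 CPM in the knockout against 0.93 to 2.62 and 10.8 to 11.7 CPM. Ear11, an eosinophil-associated ribonuclease, varied among the knockout libraries at 26.5, 33.9 and 82.3 CPM, all above its cytokine values of 4.46, 2.03 and 3.12 CPM. Over the whole list of C-type lectins and Fc receptors, 8 of 20 were called higher and 5 lower.

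Pim1 and Cebpb had another pattern, with the knockout above both wild-type groups. Pim1 (chromosome 17, 29490785 to 29496111), a kinase that acts downstream of STAT proteins in cytokine signalling, had 231, 216 and 224 CPM in the knockout. With cytokines it had 12.9, 14.8 and 13.2 CPM and in wild-type medium 10.9, 12.4 and 12 CPM (16.3-fold, log2 fold change 4.03 ± 0.12 SE, adjusted p = 1.1e-15 against cytokines). The replicates of each group lay close together. Cebpb, a transcription factor of inflammatory and myeloid genes, varied more, at 31.0, 60.3 and 107 CPM in the knockout, 3.4, 3.89 and 3.29 CPM with cytokines and 1.02, 2.66 and 2.02 CPM in wild-type medium. Ptx3, a secreted pattern-recognition protein, had 186, 148 and 216 CPM, then 5.34, 9.9 and 8.47 CPM, then 20.5, 24.4 and 16.7 CPM in the same order of groups. Errfi1, an inhibitor of epidermal growth factor receptor signalling, had 698, 518 and 443 CPM, then 53.8, 68.9 and 43.6 CPM, then 189, 201 and 136 CPM.

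Dendritic lineage genes were split. Of 25 tested, 11 were called higher and 7 lower in the knockout, with a median of 0.361. The median was 0.128 without the second knockout library and 0.135 without the second cytokine-treated library. Zbtb46, a transcription factor of classical dendritic cells, had 15.4, 13.3 and 13 CPM in the knockout and 2.62, 1.44 and 1.32 CPM with cytokines (log2 fold change 2.97 ± 0.27 SE). Batf3, needed for cross-presenting dendritic cells, had 14.2, 11.7 and 16.9 CPM against 3.98, 0.846 and 1.23 CPM. Btla, an inhibitory receptor, ran the other way, with 0.635, 0.674 and 1.02 CPM against 9.41, 8.46 and 11.7 CPM. Csf2rb, the shared signalling chain of the GM-CSF receptor, was at 1410, 1810 and 1420 CPM against 2670, 2780 and 2720 CPM. Against wild-type medium, 5 lineage genes were called higher and 14 lower with cytokines, and none higher and 7 lower in the knockout.

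Several maturation and costimulation genes depended on 1 library. Of 22 tested, 10 were called higher and 4 lower in the knockout, with a median of 0.789. Tnfsf4, the ligand of the costimulatory receptor OX40, had 6.53, 4.33 and 5.31 CPM in the knockout against 1.26, 0.0846 and 0 CPM. Ccl17, a chemokine that draws T cells, had 899, 605 and 1170 CPM in the knockout and 181, 23.6 and 38.6 CPM with cytokines (log2 fold change 3.47 ± 0.63 SE, adjusted p = 0.00067). Aldh1a2, the enzyme that makes retinoic acid, had 95.1, 70.7 and 48.4 CPM against 16.6, 0.169 and 0.576 CPM (log2 fold change 3.70 ± 0.89 SE, adjusted p = 0.0045). In both the first cytokine-treated library was the highest of its group, and both lost their call when only the compared groups were fitted (adjusted p = 0.054 and 0.094).

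Ccr7, the receptor that guides mature dendritic cells to lymph nodes, had 257, 123 and 168 CPM in the knockout and 85.3, 7.19 and 2.06 CPM with cytokines, and was not called (log2 fold change 2.55 ± 1.06 SE, adjusted p = 0.066). Without the first cytokine-treated library the log2 fold change was 5.30 (adjusted p = 0.0021). Il12b, a subunit of interleukin-12, had 0.907, 0.77 and 1.4 CPM against 22.7, 0.169 and 0.164 CPM and was not called either (log2 fold change -2.82 ± 1.31 SE, adjusted p = 0.097). Without that library it was 2.53 (adjusted p = 0.0062), so the sign turned. Cd40, a costimulatory receptor, had 3.27, 2.6 and 3.35 CPM against 14.9, 1.18 and 1.73 CPM, also not called (log2 fold change -0.89, adjusted p = 0.39), and stood at 1.07 (adjusted p = 0.13) without that library. With the third wild-type medium library left out as well it was called at 1.07 (adjusted p = 0.0021), and with no filter on low counts it was called at -0.918 (adjusted p = 1.1e-05). The unfiltered fit also gave adjusted p of 7.3e-82 for Ccr7 and 6e-36 for Il12b, which are as uneven among the cytokine libraries. Its p-values are therefore not relied on for such genes. Cd80 had 13.7, 18.6 and 12.6 CPM against 11.2, 9.05 and 6.0 CPM (log2 fold change 0.78, adjusted p = 0.027), and lost its call without the second knockout library or without the second or the third cytokine library (adjusted p = 0.12, 0.065 and 0.13). Cd274, which encodes the inhibitory ligand PD-L1, had 193, 186 and 133 CPM against 200, 180 and 118 CPM and was not called.

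**Figure D3:**
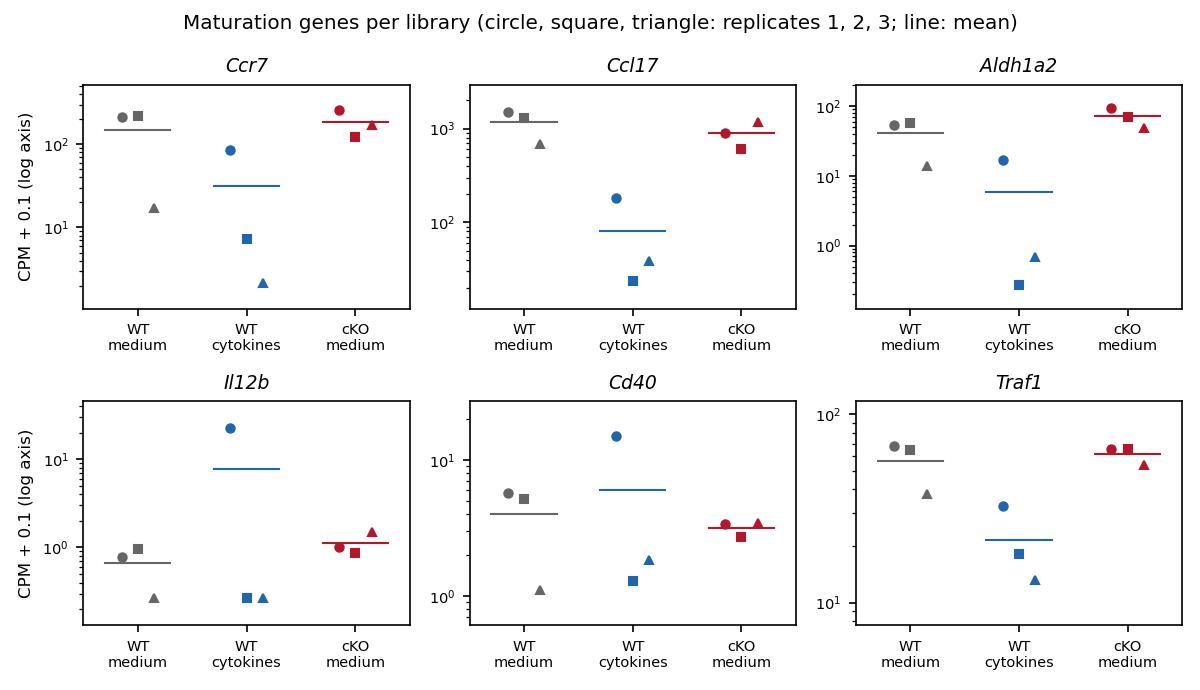
Level of 6 maturation genes in each library, as CPM + 0.1 on a log axis, for the same 3 groups; circles, squares and triangles are replicates 1, 2 and 3 and the line is the group mean. The circle of the cytokine group lies above the square and triangle in each gene, with Il12b at 22.7 CPM against 0.169 and 0.164 CPM.

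Targets of the IL-10 pathway were mostly lower in the knockout. Of 26 tested STAT3 targets, 6 were called higher and 16 lower, with a median of -0.453. Socs3, the feedback inhibitor that STAT3 induces, had 190, 201 and 184 CPM in the knockout, 385, 408 and 356 CPM with cytokines and 108, 108 and 74.0 CPM in wild-type medium (log2 fold change -1.0 ± 0.15 SE). Il1rn, the interleukin-1 receptor antagonist, had 1350, 1170 and 987 CPM, then 2720, 3140 and 2690 CPM, then 772, 739 and 765 CPM in the same order. In both genes the knockout lay between the wild-type groups: it was called above wild-type medium by 0.99 and 0.62 on the log2 scale, and the cytokine-treated cells by 1.99 and 1.91. Il4ra, the interleukin-4 receptor chain, had 343, 303 and 285 CPM against 515, 551 and 508 CPM. Fcgr1, the high-affinity Fc receptor, had 12.5, 21.1 and 19.3 CPM against 102, 96.8 and 85.0 CPM. Tnip3, an inhibitor of NF-kB signalling, ran the other way, with 206, 190 and 230 CPM against 50.1, 47.4 and 31.0 CPM. Pim1 is on this list too and was higher.

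Among 19 receptors and transducers of the IL-10 and TGF-beta pathways, 8 were called higher and 5 lower. Il10ra, the ligand-binding IL-10 receptor chain, was slightly higher in the knockout at 162, 173 and 158 CPM against 123, 129 and 110 CPM (log2 fold change 0.45 ± 0.11 SE, adjusted p = 0.0023). Stat3 itself had 160, 135 and 127 CPM against 205, 209 and 200 CPM. Tgfbr1, the signalling kinase of the TGF-beta receptor, had 9.8, 11.7 and 14.9 CPM in the knockout, 49.3, 45.2 and 45.0 CPM with cytokines and 30.3, 27.2 and 26.7 CPM in wild-type medium. Il10 was near the counting floor in both groups (0.192 to 0.279 and 0.097 to 0.507 CPM), and no difference was detectable at this depth.

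TGF-beta targets were lower in the knockout in 14 of 27 tested and higher in 4, with a median of -0.504. Tgfbi, an extracellular matrix protein named for its induction by TGF-beta, had 329, 474 and 419 CPM in the knockout and 2650, 2980 and 2600 CPM with cytokines (log2 fold change -2.75 ± 0.16 SE). Wild-type medium cells had 647, 613 and 736 CPM, above all 3 knockout libraries. Pmepa1 had 1.81, 1.73 and 1.58 CPM against 18.8, 19.3 and 20.2 CPM, and Id1, an inhibitor of DNA-binding factors, 9.16, 10.8 and 8.94 CPM against 52.4, 54.6 and 57.2 CPM. Smad7, the inhibitory SMAD, had 1.72, 3.08 and 2.42 CPM against 3.98, 6.34 and 5.18 CPM (log2 fold change -1.11 ± 0.27 SE, adjusted p = 0.0021). None of these 4 genes overlapped between the groups. Against wild-type medium, 12 of the 27 were called higher and 2 lower with cytokines, and 6 higher and 8 lower in the knockout.

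Proinflammatory cytokines and chemokines had more lower than higher calls in resting knockout cells. Of 32 tested, 16 were called lower and 3 higher (Ebi3, Il15 and Ccl17), with a median of -0.839. Without the first cytokine-treated library 15 were lower and 6 higher, with a median of -0.443. Il1b, the interleukin-1 beta precursor, had 865, 1060 and 878 CPM in the knockout, 1960, 2270 and 1640 CPM with cytokines and 451, 421 and 259 CPM in wild-type medium (log2 fold change -1.07 ± 0.16 SE). Osm, which encodes oncostatin M, had 284, 256 and 262 CPM, then 533, 615 and 514 CPM, then 57.7, 55.0 and 49.7 CPM. Both groups were called above wild-type medium in these genes. In the list, 9 were called higher in the knockout against wild-type medium and none lower, and 22 higher and 3 lower with cytokines.

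Il18 had 1.91, 2.5 and 3.35 CPM in the knockout and 14.5, 13.1 and 14.0 CPM with cytokines. Tnf, a main early inflammatory cytokine, had 38.7, 53.6 and 38.5 CPM against 62.3, 63.1 and 57.2 CPM (log2 fold change -0.48 ± 0.16 SE, adjusted p = 0.016), a call that was lost without the first or the third knockout library (adjusted p = 0.078 and 0.076). Il6 had 16.5, 23.8 and 20.6 CPM against 27.8, 24.9 and 18.7 CPM and was not called. Il1b, Il1rn and Osm are also made by granulocytes, whose summed markers were higher with cytokines. Their part in these differences was not tested.

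NF-kB pathway genes were called higher in 8 of 22 and lower in 2. Nfkbia, the inhibitor that NF-kB induces in feedback, had 1270, 1110 and 1420 CPM in the knockout and 682, 668 and 580 CPM with cytokines (log2 fold change 0.98 ± 0.11 SE). Traf1, a signalling adaptor of the TNF receptor family, had 65.5, 65.2 and 53.5 CPM against 32.7, 18.1 and 13.1 CPM. Nfkbid, a nuclear regulator of NF-kB, was lower at 15.1, 19.3 and 18.3 CPM against 35.3, 37.9 and 27.3 CPM. Immediate early genes, which respond within minutes to many stimuli, were called higher in 9 of 29 and lower in 12. Without the third knockout library 4 were higher and 10 lower, and without either the first knockout or the first cytokine-treated library 6 were higher and 8 lower. Fos had 118, 141 and 155 CPM in the knockout, 427, 486 and 454 CPM with cytokines and 27.3, 13.6 and 25.6 CPM in wild-type medium. Dusp5, a phosphatase that switches off ERK, had 26.9, 38.8 and 44.5 CPM against 4.85, 13.4 and 11.5 CPM. Against wild-type medium, 18 immediate early genes were called higher in the knockout and 20 with cytokines.

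Glucocorticoid-responsive genes were called higher in 9 of 18 and lower in 6. Sgk1, a kinase of ion transport, had 53.4, 68.7 and 57.3 CPM in the knockout, 892, 1050 and 844 CPM with cytokines and 156, 142 and 186 CPM in wild-type medium (log2 fold change -3.96 ± 0.18 SE). The knockout thus lay below wild-type medium and the cytokine-treated cells above it. Errfi1, given above, belongs to this list and ran the opposite way. Tsc22d3, which encodes the glucocorticoid-induced leucine zipper, was not called (log2 fold change -0.26, adjusted p = 0.28).

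Genes that work with BAG6 were split. Of 12 tested genes of the BAG6 complex and of tail-anchored protein insertion, 4 were called higher, Bag1, Rnf126 and Ube2j2 among them, and 3 lower (Bag6, Wrb and Asna1). Rnf126, a ubiquitin ligase that works with BAG6, had a log2 fold change of 0.92, and Ube2j2, a ubiquitin-conjugating enzyme of endoplasmic reticulum quality control, 0.66. Of 18 genes that flank Bag6 on chromosome 17, 2 were called higher and 6 lower, among them Ddx39b (-0.50), Abhd16a (-0.66), Csnk2b (-0.48) and Lst1 (-0.57). Over all 18 the log2 fold changes ran from -0.663 to 1.28, and 1 of the 2 higher calls was a rise of more than 2-fold. Bag6 fell by 2.23 on the same scale, more than any of the 18.

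Stress genes showed no single direction. Targets of ATF4, the factor of the integrated stress response, were called higher in 7 of 32 and lower in 8, and without the second knockout library 4 were higher and 8 lower. Genes of folding in the endoplasmic reticulum were higher in 6 of 25 and lower in 11. Dnajb9, a cochaperone of that compartment, had 42.6, 42.1 and 33.6 CPM against 84.7, 85.0 and 84.8 CPM, while Xbp1, the transcription factor of the unfolded protein response, was higher at 746, 620 and 685 CPM against 492, 521 and 525 CPM. Ddit3, which encodes CHOP, was not called (log2 fold change -0.40, adjusted p = 0.19). Cytosolic chaperones were higher in 6 of 26 and lower in 7. Among p53 targets 11 of 25 were higher and 4 lower. Cdkn1a, the cell cycle inhibitor p21, had 762, 626 and 691 CPM against 466, 413 and 330 CPM. Sesn1, a stress protein that restrains mTORC1, had 33.8, 22.5 and 28.6 CPM against 7.96, 7.53 and 7.97 CPM. Perp, a membrane protein, was lower at 6.62, 9.62 and 20.6 CPM against 82.9, 69.4 and 89.5 CPM.

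Glycolysis genes were mostly higher in the knockout. Of 23 tested glycolysis genes, 15 were called higher and 2 lower, with a median of 0.456. Gpi1, glucose-6-phosphate isomerase, had 5580, 5220 and 4780 CPM in the knockout, 1590, 1710 and 1410 CPM with cytokines and 3450, 3870 and 2790 CPM in wild-type medium (3.29-fold, log2 fold change 1.72 ± 0.14 SE). Pgk1, phosphoglycerate kinase, had 2620, 2590 and 2620 CPM against 1420, 1570 and 1300 CPM. Of 38 tested genes of the tricarboxylic acid cycle and respiratory chain, 16 were called higher and 1, Cycs, lower. The number called higher was 9 without the third knockout library and 6 without the second cytokine library. The changes were small, with a median of 0.185, and 0.41 to 0.56 for Sdha, Sdhd and Uqcrfs1. Against wild-type medium, 27 of the 38 were called lower with cytokines and 14 in the knockout, and 1 higher in each, so both groups had lower calls against resting wild-type cells.

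**Figure D4:**
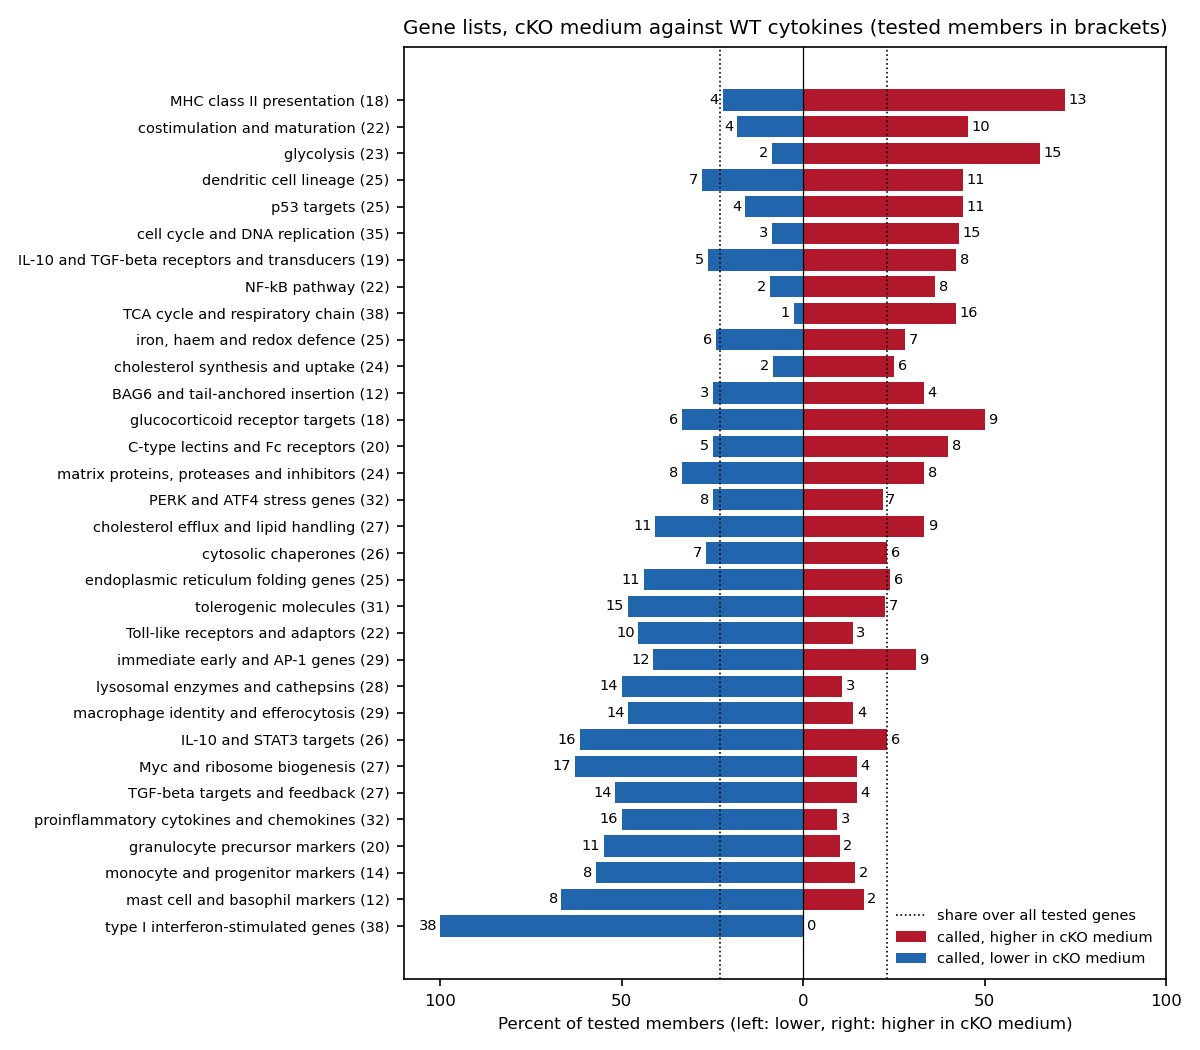
Share of tested members called lower (bars to the left) and higher (bars to the right) in the knockout for 32 gene lists, sorted by median log2 fold change, in percent; numbers at the bar ends are gene counts and the dotted lines mark the shares over all genes tested (22.9% and 23.0%). The interferon-stimulated list has its 38 members to the left, while MHC class II and glycolysis reach farther right than the dotted line.

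Macrophage and lysosome genes had more lower than higher calls in the knockout. Of 29 macrophage genes, 14 were called lower and 4 higher (median -0.429), and of 28 lysosome genes, 14 lower and 3 higher (median -0.395). Lyz2 and Cx3cr1, named here after their values were seen, were among the 4 higher macrophage genes. Lyz2 had 15300, 12000 and 15900 CPM in the knockout and 7140, 6070 and 6140 CPM with cytokines (log2 fold change 1.16). Cx3cr1 had the largest rise of that list (log2 fold change 4.51). Mertk, a receptor that clears dying cells, had 12.6, 19.0 and 13.4 CPM in the knockout and 86.9, 96.0 and 74.4 CPM with cytokines (log2 fold change -2.52 ± 0.16 SE). Ctsd, the lysosomal protease cathepsin D, had 3520, 3120 and 3230 CPM against 7980, 8870 and 7740 CPM. Acp5, tartrate-resistant acid phosphatase, had 24.0, 14.6 and 21.8 CPM against 101, 101 and 88.5 CPM. Arg1, the arginine-degrading enzyme arginase 1, is not on the macrophage list. It had 2940, 2740 and 3030 CPM in the knockout, against 5630, 6640 and 4670 CPM with cytokines and 3110, 4080 and 2910 CPM in wild-type medium. Mrc1, the mannose receptor, had 45.0, 50.5 and 100 CPM against 86.5, 79.6 and 80.2 CPM and was not called (adjusted p = 0.24). Without the third knockout library it was called at -0.782 (adjusted p = 0.00022).

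The cholesterol exporters were lower. Abca1 and Abcg1, transporters that export cholesterol, had 13.3, 18.4 and 15.8 CPM against 122, 127 and 82.2 CPM and 100, 106 and 141 CPM against 312, 297 and 285 CPM. Plin2, a coat protein of lipid droplets, had 257, 228 and 275 CPM against 636, 668 and 636 CPM. The whole list of efflux and lipid handling was mixed, with 9 of 27 called higher and 11 lower. Cholesterol synthesis genes were called higher in 6 of 24 and lower in 2. Of 31 genes associated with tolerogenic dendritic cells, 15 were called lower and 7 higher. Havcr2, which encodes TIM-3, a receptor whose cytoplasmic tail BAT3 binds, had 4.08, 5.87 and 5.12 CPM in the knockout and 25.5, 24.7 and 8.96 CPM with cytokines (log2 fold change -1.97 ± 0.43 SE, adjusted p = 0.0016). Lgals9, its ligand galectin-9, had 167, 135 and 164 CPM against 369, 347 and 359 CPM. Hmox1, heme oxygenase 1, had 280, 423 and 301 CPM against 734, 635 and 547 CPM.

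Toll-like receptor pathway genes were called lower in 10 of 22 and higher in 3, with Tlr3, the sensor of double-stranded RNA, at a log2 fold change of -2.90, Tlr7 at -1.46 and Tlr2 at -0.87. Matrix genes were split, at 8 of 24 higher and 8 lower: Vcan, the proteoglycan versican, had 11, 24.4 and 16.2 CPM against 141, 140 and 121 CPM, and Mmp12, macrophage elastase, was higher at 9780, 6350 and 7380 CPM against 3480, 4040 and 2910 CPM. Cell cycle genes were called higher in 15 of 35 and lower in 3 (median 0.308, and 0.477 without the third cytokine library). Bub1, a mitotic checkpoint kinase, had 97.2, 96.2 and 68.4 CPM against 39.2, 33.2 and 41.6 CPM. Myc and ribosome biogenesis genes went the other way, lower in 17 of 27 and higher in 4 (median -0.498). Nop56, a core protein of small nucleolar particles, had 34.7, 30.1 and 32.2 CPM against 64.6, 69.3 and 82.0 CPM. In the knockout against wild-type medium, 18 of these 27 were called lower and 3 higher, and with cytokines 3 were called lower and 2 higher. Iron and redox genes were called higher in 7 of 25 and lower in 6. Gsr, glutathione reductase, had 223, 206 and 188 CPM against 76.8, 107 and 101 CPM.

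Markers of other cell types moved with the groups. Of 20 granulocyte markers, 11 were called lower in the knockout than with cytokines and 2 higher (Lyz1 and Retnlg), with a median of -1.04. When the third knockout library was left out 7 were lower, with a median of -0.687. Ltf, lactoferrin of neutrophil granules, had 69.6, 84.6 and 36.4 CPM against 672, 507 and 1060 CPM. Against wild-type medium, 15 granulocyte markers were called higher in the knockout and none lower, and 18 higher and 1 lower with cytokines. Of 14 monocyte and progenitor markers, 8 were lower and 2 higher, and their sum was 1300 to 1940 CPM in the knockout, 2340 to 2700 CPM with cytokines and 1160 to 1280 CPM in wild-type medium. Plac8 had 5.26, 5.77 and 2.33 CPM against 57.2, 63.2 and 63.3 CPM, and the monocyte surface gene Ly6c2 506, 559 and 493 CPM against 1230, 1430 and 1130 CPM. Ly6c genes are also induced by interferon.

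Of 12 mast cell and basophil markers, 8 were lower and 2 higher. The list's summed level was 26.1 to 45.9 CPM in the knockout, 53.2 to 97.3 CPM with cytokines and 18.1 to 38.1 CPM in wild-type medium. The protease genes Mcpt2 and Cma1, defining markers of mast cells (Mcpt2 was chosen after its values were seen), were at 0 in all 3 knockout libraries. In wild-type medium Mcpt2 was also at 0, and Cma1 at 0.17, 0 and 0 CPM. The bound below was taken only for tested markers with no count in the knockout. Against the floor of 3 counts over the group (0.0933 CPM), Mcpt2 was at least 107-fold lower and Cma1 at least 41.1-fold lower than with cytokines. With both genes set at that bound the list's median stayed at -1.79. It could not move, since both bounds lie far below the median. Il1rl1, the interleukin-33 receptor of mast cells, was higher at 5.9, 6.74 and 8.94 CPM against 2.13, 1.01 and 2.06 CPM. The T cell genes Cd3e and Cd3g and the B cell factor Pax5 were at 0 in all 9 libraries. Lymphocyte markers summed to at most 4.63 CPM in the knockout and 8.14 CPM with cytokines. Whether these cells contribute to other differences was not tested.

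Some genes were close in the resting knockout and the cytokine-treated cells. Among the genes not called, 288 of 11876 had a 95% interval of the difference within 0.25 of 0 on the log2 scale. In 85 of them both groups lay on the same side of wild-type medium without overlapping it. The share of all genes placed in that way is not given here, so the 85 are a count only. Mbnl1, a splicing regulator, had 220, 228 and 165 CPM in the knockout, 196, 200 and 217 CPM with cytokines and 406, 330 and 379 CPM in wild-type medium, with an interval of -0.228 to 0.227. Mgst2, a microsomal glutathione transferase, had 50.3, 46.0 and 45.1 CPM, then 46.9, 51.8 and 46.5 CPM, then 28.3, 31.2 and 24.5 CPM. Lsp1, an actin-binding protein of leukocytes, had 481, 536 and 577 CPM, then 508, 542 and 550 CPM, then 774, 772 and 765 CPM. Osbpl9, a lipid transfer protein, had 201, 178 and 169 CPM, then 164, 197 and 176 CPM, then 120, 121 and 120 CPM. In each of these the 2 groups overlapped and lay apart from wild-type medium. The shared wild-type libraries fix part of such a likeness, so no more is read from it.

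With LPS added to both sides, the order of the interferon-stimulated genes turned. Knockout cells with LPS were compared with wild-type cells given LPS + IL10 + TGF-β, 3 libraries each, none shared with the LPS-free contrast. The first knockout library with LPS also had the female pattern, with 1010 CPM of Xist and 0.424 CPM of Ddx3y. Whether it came from the same mouse as the first resting knockout library is not stated in the labels. In that comparison 6773 genes were called (57.0%), 3248 higher (27.3%) and 3525 lower (29.7%). The interferon list had 33 of 38 members called higher and none lower, with a median of 0.831, against 0 higher and 38 lower without LPS. The difference between the contrasts was tested as an interaction, for which 4757 genes were called (40.1%). Of them, 2526 (21.3%) were higher in the LPS-free contrast and 2231 (18.8%) lower, and all 38 interferon genes were among the lower ones. The split of interaction calls depends on the scaling: 53.1% were higher with the TMM scaling used, 46.0% with relative log expression factors, 64.7% with upper-quartile factors and 78.7% on log2(TPM + 1). The median of all genes moved from 0.0787 to 0.344 between the first and the last. The values with LPS were not recomputed under the other scalings.

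Rsad2 rose to a mean of 4630 CPM in knockout cells with LPS and 379 CPM in cytokine-treated cells with LPS, a log2 fold change of 3.61 after -6.57 without LPS. Oasl2 reached 1060 and 644 CPM, and Irf7 1870 and 1090 CPM. The proinflammatory list also turned, with all libraries in, from 3 higher and 16 lower without LPS to 21 higher and 2 lower with it (medians -0.839 and 1.36). Tnf was at 210 CPM in knockout cells with LPS and 29.0 CPM in the cytokine-treated cells with LPS. Il12b was at 798 and 0.71 CPM. MHC class II genes kept a positive median, 0.99 without LPS and 0.975 with it, and granulocyte markers a negative one, -1.04 and -1.52. Mgl2 was higher in the knockout in both, by 5.14 and 5.88 on the log2 scale, and Tgfbi lower in both, at -2.75 and -3.99. Of the 5452 genes called without LPS, 3532 (64.8%) were also called with it, which is 52.1% of the 6773. The direction was the same in 2780 and opposite in 752.

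**Figure D5:**
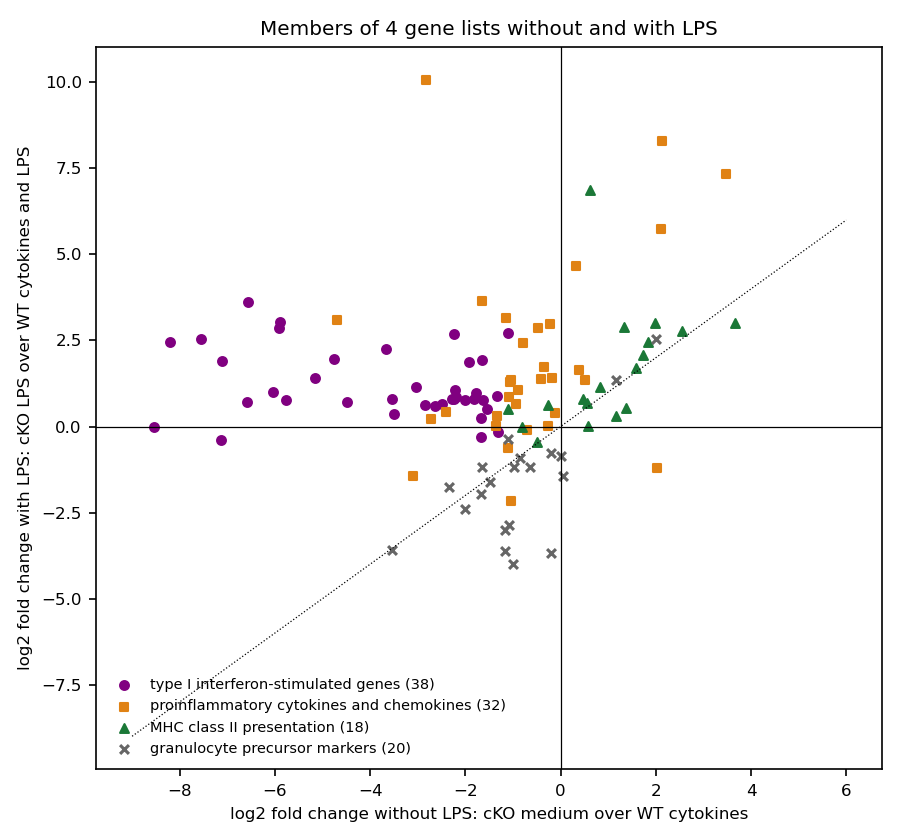
Log2 fold change of knockout over cytokine-treated wild-type cells without LPS (x axis) and with LPS (y axis), 1 point per gene, for 4 lists: 38 interferon-stimulated, 32 proinflammatory, 18 MHC class II and 20 granulocyte genes; the dotted line marks equal values. The interferon genes lie at negative x with a median of -2.74, and at a median of 0.831 on y.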

How the data were processed

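RNA from 18 libraries, 3 in each of 6 groups, was sequenced, and 6 of them are compared here. Per the submitters' processing notes, bcl2fastq and RSEM were used with mm10. The deposited values are RSEM expected counts, estimated per gene and not whole, and TPM, which the authors' RSEM run scaled to the same sum in every library per the file headers. Tool versions, filters and strand setting are not given in the sources used here. Without a known strand setting, reads of overlapping and antisense genes cannot be told apart. Totals were 8056831 to 12068759 expected counts per library.

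Expected counts were rounded and tested with edgeR 4.0.16 in R 4.3.3 (robust quasi-likelihood F-test, low counts removed by group, TMM scaling, all 6 groups in 1 fit, Benjamini-Hochberg adjustment over 11876 genes, called at an adjusted p under 0.05). The standard error is the log2 fold change divided by the square root of F. CPM use TMM-scaled totals. The alternatives, including limma 3.58.1 on log2(TPM + 1) and log2(TPM + 0.1) and DESeq2 1.42.0, are given at the end. The procedure was also run on simulated counts, with few changed genes and no outlying library. These data differ on both points, so that run does not give the error rate here. Coordinates come from RefSeq on GRCm38.p6.

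The comparison and the 37 gene lists were chosen with earlier results of these data known. Genes were named by rule: Bag6, the 12 largest called changes each way whose mean over the compared libraries reached 3 on the log2 CPM scale and whose groups did not overlap, the 4 called members with the smallest p in each list, 35 fixed readouts, the 5 largest interactions each way, and 6 close genes. Sex-linked genes and unnamed gene models were left out of the largest changes. The values of the contrast with LPS and the promoter search were added after seeing the data.

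Same-numbered replicates were checked for pairing by the correlation of their deviations over 7785 genes. Cytokine-treated and wild-type medium libraries gave 0.39, 0.15 and 0.47, so their numbers look paired, from the data and not the labels. The fit reported here did not use this pairing. For cytokines against wild-type medium, a fit with the replicate number as a block called 4276 genes, against 4175 without it. Each library was counted as its own sample. Replicates of a group differed by more than sampling noise (chi-square per degree of freedom of at least 7.95). Separate cultures of the same mouse could differ in that way too, so this does not show that replicates were separate mice.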

Additional observations from a re-analysis of the deposited data

Results flagged for a closer look

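The difference between knockout and cytokine-treated cells itself differed between cultures without and with LPS in 4757 genes, by the interaction term of the edgeR fit. Among genes whose log2 CPM averaged 3 or more over the 12 libraries, unnamed gene models and sex-linked genes left out, the 5 most negative interactions were in interferon-induced genes: Ifit3 (-10.6), Rsad2 (-10.2), Oasl1 (-10.1), Ifi205 (-9.40) and Ifit1 (-9.03 on the log2 scale). Ifit1, which blocks foreign RNA, had 0.544, 0.577 and 0.559 CPM in resting knockout cells and 107, 65.1 and 66.5 CPM with cytokines. With LPS its means were 997 CPM in the knockout and 265 CPM in the cytokine-treated cells. Ifit3 went from a log2 fold change of -8.20 without LPS to 2.45 with it, Oasl1 from -7.55 to 2.55 and Ifi205 from -7.13 to 2.27.

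At that level the 5 largest positive interactions were F13a1 (3.67), C5ar2 (3.23), Serpinb2 (3.11), Asns (3.10) and Fasn (2.81). F13a1, a clotting factor subunit of macrophages, had 566, 590 and 252 CPM in resting knockout cells and 215, 347 and 141 CPM with cytokines, and was not called (log2 fold change 1.00, adjusted p = 0.064). With LPS it was lower in the knockout, at a mean of 44.2 CPM against 281 CPM. C5ar2, a complement receptor, was lower in the knockout in both, at -2.28 and -5.51. Asns, asparagine synthetase, had a log2 fold change of 0.50 without LPS (adjusted p = 0.048, a call lost in 13 settings) and -2.6 with it. Fasn, fatty acid synthase, was at -0.04 and -2.85, and Serpinb2, an inhibitor of plasminogen activators, at 0.34 and -2.77. Of the named genes below that level, Il12b had an interaction of -12.9 and Il1rl1 one of 4.27.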

How the results depend on the processing

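Beside leaving out each library in turn, 12 alternatives were planned, and 1 was added after seeing the data, without the first cytokine-treated and the third wild-type medium library. Of 166 called named genes, 126 kept their call and direction in all 19 settings, and 12 of the 23 others were called in none. The interferon list had 37 or 38 members lower in each setting. Requiring a change of over 1.5-fold left 1799 genes in the main comparison, 1859 for the interaction, 519 for the knockout and 1422 for cytokines against wild-type medium, and 1 list with most members called 1 way in place of 9. With only the compared groups fitted, the knockout against wild-type medium gave 2306. Leaving out 1 library gave 4733 to 5364 genes in the main comparison, 4146 to 4717 for the interaction, 2527 to 3545 for the knockout and 3292 to 4008 for cytokines against wild-type medium, and 7 to 11 lists. Without the first knockout library, of the other sex pattern, 4787 genes were called. The share of main calls that were higher ran from 46.9% to 57.8%.

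With no count filter the medians of glucocorticoid (-0.287) and dendritic lineage genes (-0.0405) changed sign. The ATF4 median (-0.0283) was 0.0328 with at least 5 CPM in 3 libraries, 0.0327 and 0.0332 on the TPM scales, 0.021 with upper-quartile scaling and 0.0472 in the added alternative. It ranged from -0.0507 to 0.0572 over the libraries left out. The median of 3 stromal and erythroid markers was -1.92 with the CPM minimum, -0.662 with only the groups compared and -0.113 to 0.733 with 1 library left out. Il12b ran from -3.45 to 2.53 with 1 library left out, with 2.53 without the first cytokine library and 2.53 in the added alternative, and Cd40 at 1.07 in the latter, where it was called. Without the first cytokine library Cd40 was also at 1.07. With at least 5 CPM in 3 libraries no lymphocyte marker was tested, so that list has no value. The cause of the other changes was not tested.

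Knockout and cytokine libraries of the same number did not deviate together (0.042, -0.071 and -0.0037), so they share only a number. The replicate block called 5546 genes in the main comparison, 4833 for the interaction and 3666 for the knockout against wild-type medium. It made Ccr7 (3.07, adjusted p = 0.028), Bcl3, Cd14 and F13a1 called. Differences in genes near the floor of 3 counts were not detectable at this depth.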

Other observations

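The genes in these paragraphs were chosen after their values were seen. Asgr2, a subunit of the asialoglycoprotein receptor, lies beside Mgl2 and Clec10a on chromosome 11 (70092644 to 70106187 on GRCm38, with Mgl2 at 70130125 to 70137542 and Clec10a at 70166623 to 70170836). It had 78.2, 96.7 and 107 CPM in resting knockout cells, 1.46, 0.169 and 0.658 CPM in cytokine-treated cells and 176, 132 and 82.2 CPM in wild-type medium (log2 fold change 6.98 ± 0.43 SE, adjusted p = 3.7e-08). The 3 neighbouring lectins were thus all low in the cytokine-treated cells. Asgr1, which encodes the other receptor subunit, was at 0 in all 9 libraries.

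Lipid genes were split. Apoe, a lipid-carrying protein that macrophages secrete, had 16, 15.4 and 12.3 CPM in the knockout, 414, 410 and 280 CPM with cytokines and 8.83, 6 and 9.17 CPM in wild-type medium. Nr1h3, which encodes the sterol-sensing receptor LXR-alpha, had 2.27, 1.64 and 4.28 CPM against 34.7, 26.1 and 32.1 CPM. Scd1, a fatty acid desaturase, ran the other way, with 4.17, 4.62 and 7.54 CPM against 0.194, 0.254 and 0.493 CPM. Cd36, a fatty acid and scavenger receptor, had 611, 500 and 653 CPM against 113, 94.6 and 44.7 CPM, with 749, 714 and 473 CPM in wild-type medium. The chemokine receptor gene Cx3cr1 had 19.1, 21.2 and 8.85 CPM against 1.65, 0.169 and 0.411 CPM.

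Among the most abundant genes, Spp1, which encodes the secreted protein osteopontin, had 6010, 3290 and 2820 CPM in the knockout, 19700, 26200 and 18300 CPM with cytokines and 1350, 1280 and 983 CPM in wild-type medium (log2 fold change -2.41, adjusted p = 2.23e-06). Actb, beta-actin, often used as a reference gene, had 2290, 4870 and 2750 CPM in the knockout against 9300, 9500 and 10700 CPM with cytokines and 9320, 9110 and 10100 CPM in wild-type medium (log2 fold change -1.58, adjusted p = 2.95e-06). Actg1 and Gapdh were not called (log2 fold changes 0.0849 and -0.0154).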
